A study of Mus musculus with 9 samples.

Results

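The cyclin-dependent kinase inhibitors form a family of 7 mouse genes, and their transcripts were followed in L8057 cells in which CBFb or Ring1b had been knocked down. The members are Cdkn1a, Cdkn1b and Cdkn1c of the CIP/KIP branch and Cdkn2a, Cdkn2b, Cdkn2c and Cdkn2d of the INK4 branch. Each probe set that the platform annotation assigns to 1 of these symbols alone was used, which gave 9 of the 45037 probe sets tested, 5 for CIP/KIP and 4 for INK4 genes. Cdkn1a and Cdkn1b had 2 probe sets each and the other members 1, and all 9 were tested without a filter on low signal.

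L8057 is a mouse megakaryocytic cell line. The CBFb_KD cells carried a lentiviral shRNA against CBFb, the subunit that stabilises DNA binding by RUNX factors, and the Ring1b_KD cells one against Ring1b, the ubiquitin ligase of Polycomb repressive complex 1 encoded by Rnf2. The Control cells carried the empty vector rather than a hairpin. Infected cells were selected in bulk with puromycin from 48 h after infection. All 3 groups received 50 nM of the phorbol ester TPA with the puromycin and were harvested 72 h later, so no group shows the cells before TPA. Each group had 3 arrays. The submitters call them biological triplicates, without stating whether each was a separate infection, so each p-value reflects only how far these arrays spread, which may be technical. The hairpin sequences, and whether more than 1 was used per gene, are not known here.

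Both families of inhibitors restrain the kinases that drive cells through G1 into DNA synthesis. INK4 proteins bind Cdk4 and Cdk6 and keep them from D-type cyclins, so that the retinoblastoma protein stays active. CIP/KIP proteins bind cyclin-kinase complexes and inhibit Cdk2 above all. Cdkn2a and Cdkn2b lie side by side, and their locus is a textbook target of Polycomb silencing through Bmi1. Cdkn2a encodes the INK4 protein p16 and, from another first exon and reading frame, the p53 activator Arf. Megakaryocytes leave the ordinary cell cycle for endomitosis. In human megakaryoblastic lines CDKN1A is known to respond to phorbol ester, and in human megakaryocytes the product of CDKN2D is known to increase late in maturation.

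The values are log2 signals, quantile normalized over the 9 arrays, and a difference of 1 is a 2-fold difference. A probe set was called at a limma adjusted p under 0.05, adjusted over all 45037 probe sets. Arrays of 1 group correlated at 0.995 to 0.997 and arrays of different groups at 0.987 to 0.994. Cbfb averaged 9.19 ± 0.11 in CBFb_KD and 12.36 ± 0.12 in Control (SD, n = 3 each), a log2 difference of -3.17 (limma adjusted p = 2.61e-09). Rnf2 averaged 8.98 ± 0.08 in Ring1b_KD and 10.65 ± 0.08 in Control (SD, n = 3 each), a log2 difference of -1.67 (limma adjusted p = 2.11e-06). With the mean of its probe sets the Rnf2 difference was -0.89. Of 11 listed megakaryocyte markers 10 were measured, among them Pf4 (platelet factor 4) at 14.73 in CBFb_KD, 14.27 in Ring1b_KD and 14.42 in Control. The megakaryocyte marker Itga2b stood at 12.25 ± 0.09 in CBFb_KD, 11.38 ± 0.60 in Ring1b_KD and 11.22 ± 0.51 in Control (SD, n = 3 each). Its lowest signals were those of replicate 3 in Ring1b_KD (10.79) and in Control (10.63). Nfe2 stood at 5.38 in CBFb_KD, 5.39 in Ring1b_KD and 5.37 in Control. None of the 4 measured lymphoid and 5 stromal markers was called in either knockdown. The stromal marker Col1a2 nevertheless had a high signal in every group, 11.86 in CBFb_KD, 11.62 in Ring1b_KD and 11.47 in Control. In these bulk cultures, fewer cells of a type and less RNA per cell cannot be told apart.

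With CBFb reduced, 3 of the 4 INK4 genes rose: Cdkn2b 2.91-fold, Cdkn2a 1.62-fold and Cdkn2d 1.40-fold. No member was called lower, and 0 had an unadjusted p under 0.05 in that direction by limma. With Ring1b reduced, 1 member was called, a Cdkn1b probe set that rose 1.76-fold, and none of the INK4 genes passed. Called higher in CBFb_KD were thus 3 of 9 member probe sets, against 4.89% of all probe sets, and called lower were 0 of 9, against 4.75%. In Ring1b_KD the counts were 1 of 9 higher, against 3.77%, and 0 of 9 lower, against 4.71%. All 3 CBFb_KD arrays lay above all 3 Control arrays for 4 of the 9, where 11.7% of all probe sets did so, and all 3 Ring1b_KD arrays did for 3 of the 9, where 14.1% did. The median log2 difference of the 9 was 0.31 in CBFb_KD and 0.09 in Ring1b_KD, beside -0.01 in CBFb_KD and 0.01 in Ring1b_KD for all probe sets.

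The promoter stretches of the members that moved are shown here so that the letters at their starts can be read beside the values. Each runs from 250 bases before the annotated transcript start to 30 after it, 5′ to 3′ on the gene's strand, from the RefSeq promoter table of build GRCm38.p6. Capitals mark the GC box GGGCGG or its reverse complement, and none of the other motifs searched occurs in these stretches. The window of Cdkn2b is chr4:89311003-89311282, on the minus strand. For Cdkn2a the window at the upstream start, that of Arf, is chr4:89294590-89294869 and the window at the start of p16 is chr4:89282163-89282442, both on the minus strand. The windows of Cdkn2d, chr9:21291180-21291459 on the minus strand, and of Cdkn1b, chr6:134920151-134920430 on the plus strand, complete the set. The Cdkn2d start used, 21291209, lies inside the annotated gene, which reaches 21291421, so most of that window is within the gene.
Cdkn2b: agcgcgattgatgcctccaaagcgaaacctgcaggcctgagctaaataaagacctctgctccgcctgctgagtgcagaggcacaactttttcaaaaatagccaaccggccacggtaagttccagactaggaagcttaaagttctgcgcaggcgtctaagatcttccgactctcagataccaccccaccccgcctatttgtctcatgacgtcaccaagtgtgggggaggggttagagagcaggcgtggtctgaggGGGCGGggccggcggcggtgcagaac
Cdkn2a, start of Arf: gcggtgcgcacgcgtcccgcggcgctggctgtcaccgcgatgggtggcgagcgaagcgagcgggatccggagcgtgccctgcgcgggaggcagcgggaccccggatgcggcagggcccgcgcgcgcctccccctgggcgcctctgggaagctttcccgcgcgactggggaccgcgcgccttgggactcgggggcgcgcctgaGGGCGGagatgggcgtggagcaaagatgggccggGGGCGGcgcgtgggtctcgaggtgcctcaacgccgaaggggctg
Cdkn2a, start of p16: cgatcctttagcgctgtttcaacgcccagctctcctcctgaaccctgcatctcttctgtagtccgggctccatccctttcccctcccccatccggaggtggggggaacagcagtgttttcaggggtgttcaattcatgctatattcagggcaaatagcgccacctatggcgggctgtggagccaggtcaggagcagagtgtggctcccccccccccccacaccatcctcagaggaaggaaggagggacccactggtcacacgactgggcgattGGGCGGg
Cdkn2d: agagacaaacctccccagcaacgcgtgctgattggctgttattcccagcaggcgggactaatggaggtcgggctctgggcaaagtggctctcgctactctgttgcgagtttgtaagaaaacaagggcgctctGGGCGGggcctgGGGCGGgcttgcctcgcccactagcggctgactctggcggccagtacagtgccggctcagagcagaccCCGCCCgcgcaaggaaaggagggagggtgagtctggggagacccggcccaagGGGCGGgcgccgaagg
Cdkn1b: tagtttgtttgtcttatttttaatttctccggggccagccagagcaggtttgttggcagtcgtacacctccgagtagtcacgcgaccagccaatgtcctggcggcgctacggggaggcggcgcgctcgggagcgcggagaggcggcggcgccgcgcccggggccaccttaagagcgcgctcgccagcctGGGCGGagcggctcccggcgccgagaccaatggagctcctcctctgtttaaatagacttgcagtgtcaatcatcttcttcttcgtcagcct

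Of the 7 genes 6 had windows in that table, 9 windows of 300 bases in all, and Cdkn1c had none. Both strands were searched for the RUNX core TGTGGT or TGCGGT, the E-box CACGTG, the E2F site TTTCGCGC or TTTGGCGC, and the GC box GGGCGG, and no matches overlapped in the member windows. None of the 9 member windows held a RUNX core, which 22.4% of all 32851 windows hold, and none held an E2F site, which 0.813% hold. An E-box occurred in 1 window, the inner start of Cdkn2c, against 7.15% of all windows. A GC box occurred in 7 of the 9, against 35.7% of all windows. Cdkn2d had the most in its 300 bases, 5, beside 3 at the start of Arf and 1 each at the starts of p16, Cdkn2b and Cdkn1b. These are matches of letters in short windows and say nothing of the factors or of sites elsewhere.

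Cdkn2b encodes the INK4 protein p15 (chromosome 4, 89306289 to 89311032 on GRCm38.p6), and it was the member with the greatest difference in CBFb_KD. Its log2 signals were 8.97, 9.11 and 9.31 in CBFb_KD, 7.91, 7.78 and 7.54 in Ring1b_KD, and 7.58, 7.84 and 7.36 in Control. All 3 CBFb_KD arrays were above the other 6, while Ring1b_KD and Control overlapped. The group means were 9.13 ± 0.17 in CBFb_KD, 7.75 ± 0.19 in Ring1b_KD and 7.59 ± 0.24 in Control (SD, n = 3 each). The log2 difference between CBFb_KD and Control was 1.54 (95% interval 1.24 to 1.84, limma adjusted p = 5.43e-05). It ranked 105 from the top among the 45037 probe sets. In Ring1b_KD the log2 difference was 0.15 (95% interval -0.14 to 0.45, limma adjusted p = 0.548). A rise above 1.37-fold thus lay outside that interval.

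Cdkn2a, next to Cdkn2b (chromosome 4, 89274473 to 89294619), had signals of 11.11, 11.19 and 11.31 in CBFb_KD, 10.41, 10.57 and 10.35 in Ring1b_KD, and 10.49, 10.55 and 10.48 in Control. The CBFb_KD arrays stood apart above all others, and Ring1b_KD and Control overlapped. The log2 difference was 0.70 in CBFb_KD (95% interval 0.52 to 0.88, limma adjusted p = 0.000313). In Ring1b_KD it was -0.06 (95% interval -0.24 to 0.11, limma adjusted p = 0.698). The single probe set carries the suffix for probes shared by transcripts of 1 gene, and which of the p16 and Arf transcripts it measured was not resolved here.

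Cdkn2d, which encodes the INK4 protein p19 (chromosome 9, 21288459 to 21291421), had signals of 10.66, 10.86 and 10.66 in CBFb_KD, 10.40, 10.47 and 10.44 in Ring1b_KD, and 10.30, 10.31 and 10.13 in Control. The 3 groups did not overlap, with CBFb_KD highest and Control lowest. The log2 difference from Control was 0.48 in CBFb_KD (95% interval 0.30 to 0.66, limma adjusted p = 0.00319). In Ring1b_KD it was 0.19 (95% interval 0.01 to 0.37, limma adjusted p = 0.201), which was not called. With the arrays centred on their medians the Ring1b_KD difference was 0.00.

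Cdkn2c, the INK4 gene of p18 (chromosome 4, 109660876 to 109666756), passed in neither knockdown. Its signals were 10.63, 10.48 and 10.49 in CBFb_KD, 10.67, 10.65 and 10.74 in Ring1b_KD, and 10.55, 10.40 and 10.47 in Control. CBFb_KD and Control overlapped, and the Ring1b_KD arrays lay just above both. The log2 difference was 0.06 in CBFb_KD (95% interval -0.11 to 0.23, limma adjusted p = 0.77) and 0.21 in Ring1b_KD (95% interval 0.05 to 0.38, limma adjusted p = 0.113). The Ring1b_KD difference was 0.02 with the arrays centred on their medians.

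**Figure D1:**
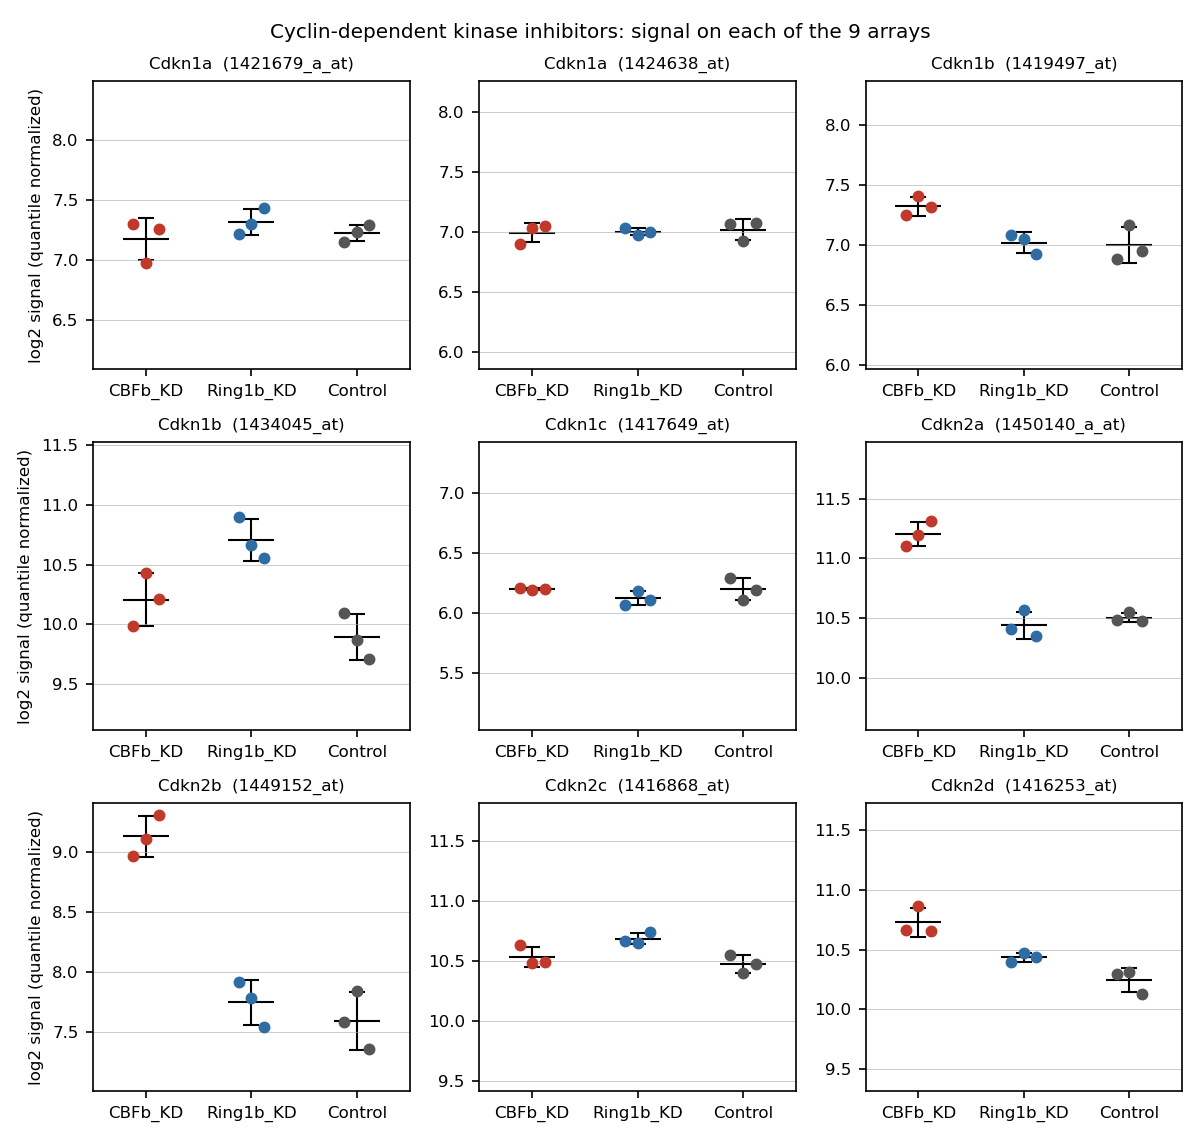
Log2 signal of each member probe set on each array, in CBFb_KD, Ring1b_KD and Control (points, 3 arrays a group), with the group mean and SD (bars), on y axes of equal span. The CBFb_KD points of Cdkn2b (8.97 to 9.31) and Cdkn2a (11.11 to 11.31) lie above those of both other groups, and for Cdkn1b probe set 1434045_at the Ring1b_KD points (10.55 to 10.90) do.

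Among the CIP/KIP genes, Cdkn1b, which encodes p27 (chromosome 6, 134920401 to 134925525), gave a different answer from each of its probe sets. Probe set 1434045_at had signals of 9.99, 10.43 and 10.21 in CBFb_KD, 10.90, 10.67 and 10.55 in Ring1b_KD, and 10.09, 9.87 and 9.71 in Control. The Ring1b_KD arrays lay above all others, and CBFb_KD overlapped Control. Its log2 difference in Ring1b_KD was 0.81 (95% interval 0.53 to 1.10, limma adjusted p = 0.00299), 182 from the top of all probe sets. In CBFb_KD it was 0.31 (95% interval 0.03 to 0.60, limma adjusted p = 0.19).

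Probe set 1419497_at of Cdkn1b had signals of 7.25, 7.41 and 7.32 in CBFb_KD, 7.08, 7.05 and 6.92 in Ring1b_KD, and 6.88, 7.17 and 6.95 in Control. Here the CBFb_KD arrays were above all others and Ring1b_KD overlapped Control. Its log2 difference was 0.32 in CBFb_KD (95% interval 0.12 to 0.53), which missed the threshold narrowly (limma adjusted p = 0.0503). The same difference was called in 9 of 16 alternatives, among them the replicate number as a block (limma adjusted p = 0.039), and not in 7. Against Ring1b_KD this probe set was higher in CBFb_KD by 0.30 without a call (limma adjusted p = 0.0519), and 6 of 16 alternatives called it. In Ring1b_KD the difference from Control was 0.02 (95% interval -0.19 to 0.22, limma adjusted p = 0.936). With both probe sets averaged, and p adjusted over genes rather than probe sets, Cdkn1b was called in either knockdown. It stood at 0.32 in CBFb_KD (limma adjusted p = 0.0446) and 0.42 in Ring1b_KD (limma adjusted p = 0.0196). The Ring1b_KD average joins 0.81 for 1434045_at with 0.02 for 1419497_at.

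Set against each other within an array, the Cdkn1b probe sets (1434045_at minus 1419497_at) differed by 3.81, 3.61 and 3.63 in Ring1b_KD and by 3.21, 2.70 and 2.76 in Control. All 3 Ring1b_KD arrays were higher (two-sided exact permutation p = 0.1, the smallest that 3 against 3 allows, so the test could not pass 0.05). In CBFb_KD the difference was 2.74, 3.02 and 2.89, which overlapped Control (two-sided exact permutation p = 0.9). This within-array difference restates the unequal values of the probe sets and does not tell which of them follows the p27 transcript, and where on the transcript each one lies was not analysed here.

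Cdkn1a, which encodes p21 (chromosome 17, 29090979 to 29100722), passed in no comparison with either probe set. Probe set 1421679_a_at had signals of 7.30, 6.98 and 7.26 in CBFb_KD, 7.22, 7.30 and 7.44 in Ring1b_KD, and 7.15, 7.23 and 7.29 in Control. Probe set 1424638_at had 6.90, 7.03 and 7.05 in CBFb_KD, 7.03, 6.98 and 6.996 in Ring1b_KD, and 7.06, 6.92 and 7.07 in Control. The groups overlapped throughout. The log2 differences of the first were -0.05 in CBFb_KD (95% interval -0.27 to 0.17) and 0.09 in Ring1b_KD (95% interval -0.13 to 0.31). Those of the second were -0.02 (95% interval -0.20 to 0.15) in CBFb_KD and -0.02 (95% interval -0.19 to 0.16) in Ring1b_KD. The lowest of these limma adjusted p-values was 0.635.

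Cdkn1c, the imprinted gene of p57 (chromosome 7, 143458339 to 143461059), was the dimmest member, with signals of 6.21, 6.19 and 6.19 in CBFb_KD, 6.07, 6.18 and 6.11 in Ring1b_KD, and 6.29, 6.11 and 6.19 in Control. The groups overlapped, apart from CBFb_KD standing just above Ring1b_KD. Its log2 difference was 0.00 in CBFb_KD (95% interval -0.16 to 0.17, limma adjusted p = 0.999) and -0.08 in Ring1b_KD (95% interval -0.24 to 0.09, limma adjusted p = 0.604). The median of all probe sets was 6.58. No detection call was used, so whether this signal stood above background is unknown. The same holds for Cdkn1a, with means over the 9 arrays of 7.24 and 7.01, and for Cdkn1b probe set 1419497_at, with 7.12.

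**Figure D2:**
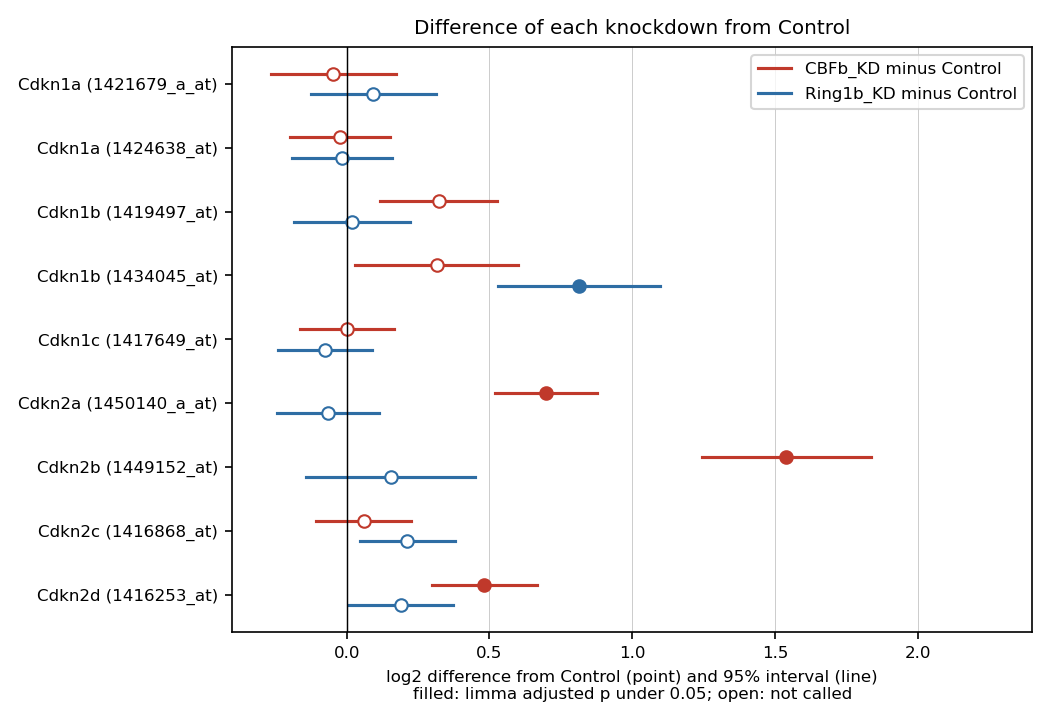
Log2 difference of CBFb_KD and of Ring1b_KD from Control for each member probe set (points) with the 95% interval of the limma fit (lines), filled where the limma adjusted p was under 0.05. In CBFb_KD the filled points are Cdkn2b (1.54), Cdkn2a (0.70) and Cdkn2d (0.48), and in Ring1b_KD the filled point is Cdkn1b probe set 1434045_at (0.81).

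The knockdowns were also compared directly, since both share the Control arrays. In CBFb_KD against Ring1b_KD, 3 of the 9 probe sets were higher, where 7.08% of all probe sets were, and 1 was lower, where 6.32% were. Cdkn2b was higher in CBFb_KD by 1.39 (95% interval 1.09 to 1.68, limma adjusted p = 5.61e-05) and Cdkn2a by 0.76 (95% interval 0.58 to 0.94, limma adjusted p = 0.000106). Cdkn2d was higher by 0.29 (limma adjusted p = 0.0378), a call that 8 of the 18 alternatives lost, among them the fit to these 2 groups alone (limma adjusted p = 0.0742) and the fit without CBFb_KD replicate 2 (0.22, limma adjusted p = 0.147). Cdkn1b probe set 1434045_at was lower in CBFb_KD (log2 difference -0.50, limma adjusted p = 0.0248), a call lost as deposited (-0.38, limma adjusted p = 0.0998) and with median centring (-0.30, limma adjusted p = 0.244). Without CBFb_KD replicate 1 or 3, or Ring1b_KD replicate 1 or 2, it was lost too (limma adjusted p = 0.0537 to 0.0893). A moderated F test over the 3 groups called 5 of the 9, both Cdkn1b probe sets, Cdkn2a, Cdkn2b and Cdkn2d, where it called 17.7% of all probe sets.

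**Figure D3:**
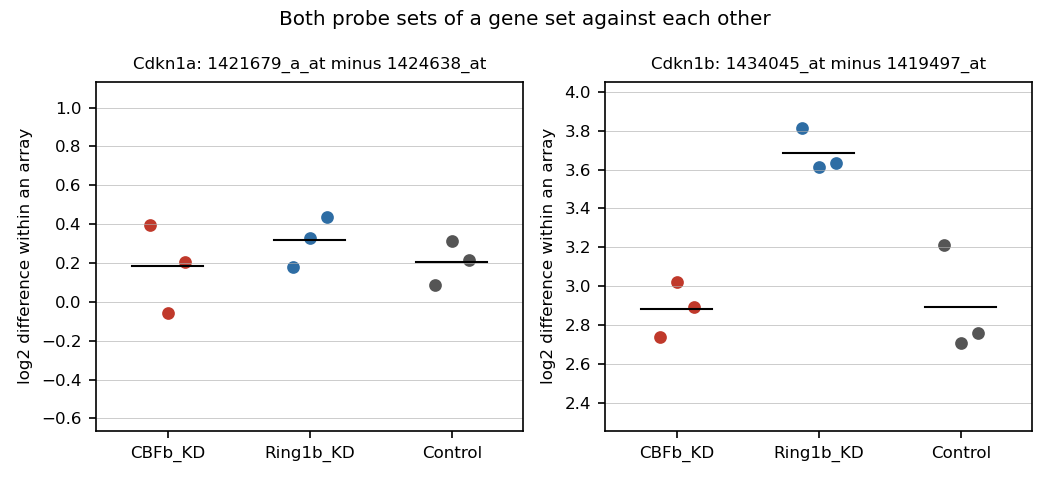
Log2 difference within each array between the probe sets of Cdkn1a (left) and of Cdkn1b (right) in CBFb_KD, Ring1b_KD and Control (points, 3 arrays a group, bar at the mean). The size of a difference depends on the probes, and only its shift between groups can be read. For Cdkn1b the Ring1b_KD arrays lie at 3.61 to 3.81 and the Control arrays at 2.70 to 3.21, while for Cdkn1a all groups overlap.

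A list of cyclin-dependent kinase, cyclin, Cdc25a, pocket protein and E2F genes held calls in both directions. Its pocket protein genes Rb1, Rbl1 and Rbl2 were called in neither knockdown. Of 21 such genes 20 were measured, and 2 were higher and 6 lower in CBFb_KD, where 6.61% of all 18193 genes were higher and 6.18% lower. Their median log2 difference was -0.19, beside -0.01 for all genes. In Ring1b_KD 1 was higher and 3 lower, where 4.55% of all genes were higher and 5.53% lower, with a median of -0.02 beside 0.01. The Ring1b_KD count lower was 6 as deposited and 7 with median centring, and the CBFb_KD count higher was 1 without CBFb_KD replicate 1 or 3, Ring1b_KD replicate 2, or Control replicate 2 or 3. Each gene is represented by its probe set with the highest mean signal, and these lists were chosen with earlier results of these data known.

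Cdk6, a partner kinase of the D-type cyclins, had signals of 12.20, 12.04 and 12.19 in CBFb_KD, 12.86, 13.01 and 12.96 in Ring1b_KD, and 13.38, 13.29 and 13.36 in Control. The 3 groups did not overlap. Cdk6 fell in CBFb_KD (log2 difference -1.20, limma adjusted p = 1.55e-06) and in Ring1b_KD (-0.40, limma adjusted p = 0.00317), and CBFb_KD was lower than Ring1b_KD (-0.80, limma adjusted p = 1.73e-05). Cdk4, the other INK4 target, whose probe set is of a type that can match other genes, was not called in CBFb_KD (-0.27, limma adjusted p = 0.205) or in Ring1b_KD (0.07, limma adjusted p = 0.763). Of the D-type cyclins Ccnd3 rose in CBFb_KD by 0.54 (limma adjusted p = 0.000617), or 0.28 with its probe sets averaged, while Ccnd1 stood at 0.05 and Ccnd2 at 0.16 without a call.

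Cdk2, the main target of CIP/KIP proteins, rose in Ring1b_KD by 0.41 (limma adjusted p = 0.00489), or by 0.21 without a call once arrays were median centred, and stood at 0.14 in CBFb_KD without a call. Ccne2, a cyclin E gene that pairs with Cdk2, fell in Ring1b_KD (-0.92, limma adjusted p = 0.00362) and in CBFb_KD (-0.65, limma adjusted p = 0.0169), the last call being lost without CBFb_KD replicate 2, Control replicate 2 or Control replicate 3. E2f3, an E2F activator of DNA synthesis genes, fell in Ring1b_KD (-0.86, limma adjusted p = 0.000347), or by 0.50 with its probe sets averaged. Cdk1, Ccna2 and Ccnb2, the kinase and cyclins of later phases, fell in CBFb_KD by 0.46, 0.43 and 0.52. E2f4, a repressive E2F, was called lower there (-0.50), a call lost without CBFb_KD replicate 2 or 3, or Control replicate 1 or 3. The pocket protein gene Rb1 was not called in CBFb_KD (0.29, limma adjusted p = 0.0659) or in Ring1b_KD (0.29, limma adjusted p = 0.0711).

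Of 31 genes listed as upstream regulators of the inhibitors, 29 were measured, and Trp53 was not analysed here. In CBFb_KD 2 rose and 7 fell, Cbfb itself among those that fell, with a median log2 difference of -0.10, where 6.61% of all genes were called higher and 6.18% lower. The count that rose was 1 without CBFb_KD replicate 3 or any 1 Control array, and 4 with only the arrays of the 2 groups compared. In Ring1b_KD 0 rose and 7 fell, Rnf2 itself among them, with a median of -0.05, where 4.55% of all genes were called higher and 5.53% lower. As deposited 1 was called higher in Ring1b_KD. Bmi1, the Polycomb partner of Ring1b that is known to silence Cdkn2a, had signals of 11.09, 11.09 and 11.07 in Ring1b_KD and 11.92, 11.93 and 12.09 in Control. It fell in Ring1b_KD (-0.90, limma adjusted p = 5.73e-05), where Cdkn2a had the log2 difference of -0.06 given above, and was at 0.01 in CBFb_KD. Ezh2 and Suz12, subunits of Polycomb repressive complex 2, fell in CBFb_KD by 0.61 and 0.60.

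Skp2, the ubiquitin ligase subunit that marks p27 for breakdown, had signals of 9.93, 9.64 and 9.64 in CBFb_KD, 10.47, 10.38 and 10.62 in Ring1b_KD, and 10.42, 10.37 and 10.50 in Control. It fell in CBFb_KD (-0.69, limma adjusted p = 0.000941) and stood at 0.06 in Ring1b_KD (limma adjusted p = 0.774). Its cofactor Cks1b fell in Ring1b_KD (-0.79, limma adjusted p = 0.000204) and less in CBFb_KD (-0.35, limma adjusted p = 0.0165), and the knockdowns differed (0.44, limma adjusted p = 0.00342). Its CBFb_KD call was lost without CBFb_KD replicate 2 or 3, or Control replicate 1 or 3. Myc, known to repress Cdkn2b and Cdkn1a through Zbtb17, fell in CBFb_KD (-0.74, limma adjusted p = 0.000153) and in Ring1b_KD (-0.46, limma adjusted p = 0.00414). Runx1 rose in CBFb_KD (1.36, limma adjusted p = 0.000571). Id1, an inhibitor of basic helix-loop-helix factors that opposes Cdkn2a transcription, fell in Ring1b_KD (-0.998, limma adjusted p = 0.000964). Fbxw7, a ubiquitin ligase subunit that acts on cyclin E and Myc, was called lower in Ring1b_KD (-0.35, limma adjusted p = 0.0182), a call lost without Control replicate 1 or 3. It was called higher in CBFb_KD (0.30, limma adjusted p = 0.0334), and leaving out CBFb_KD replicate 1 or 3 or any 1 Control array ended that call. CBFb_KD stood above Ring1b_KD by 0.65 (limma adjusted p = 0.000246).

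Beside the INK4 values, of 20 genes of cycling cells 17 fell and 0 rose in CBFb_KD (median log2 difference -0.53). In Ring1b_KD 2 fell and 0 rose (median -0.13). Of all genes, 6.61% were called higher and 6.18% lower in CBFb_KD, and 4.55% higher and 5.53% lower in Ring1b_KD. The medians of all genes were -0.01 in CBFb_KD and 0.01 in Ring1b_KD. The marker counts below are to be read beside the same shares. Aurkb, a mitotic kinase, fell by 1.07 and Mki67, the Ki-67 antigen, by 0.73 on the log2 scale in CBFb_KD. The spindle genes Cenpe (-0.68), Kif11 (-0.64) and Tpx2 (-0.57) and the replication helicase subunit gene Mcm5 (-0.66) fell there too. The probe sets of Aurkb and Mcm5, like that of Cdk4, are of a type that can match other genes. The calls in Ring1b_KD were Mki67 (-0.45) and Birc5 (-0.37), and the count there was 8 as deposited, 9 with median centring and 5 with the replicate block. It was 1 or 0 without Ring1b_KD replicate 1 or 2 or any 1 Control array. The log2 of the list's summed signal was 15.15 to 15.36 in CBFb_KD, 15.51 to 15.73 in Ring1b_KD and 15.70 to 15.73 in Control. The megakaryocyte markers moved as well, with 5 of 10 higher and 0 lower in CBFb_KD and 0 called in Ring1b_KD. Their log2 summed signal was 15.32 to 15.36 in CBFb_KD, 14.31 to 15.12 in Ring1b_KD and 14.67 to 15.00 in Control. Linear signals were summed, so this sum mostly follows Pf4, the brightest marker (14.73 in CBFb_KD, 14.27 in Ring1b_KD and 14.42 in Control). Of 5 erythroid markers 3 were higher in CBFb_KD and 0 were called in Ring1b_KD. The log2 summed signal of the erythroid markers was 11.87 to 11.98 in CBFb_KD, 11.46 to 11.75 in Ring1b_KD and 11.43 to 11.60 in Control. Klf1, the brightest of them, stood at 10.89 in CBFb_KD, 10.92 in Ring1b_KD and 10.92 in Control. Of 10 granulocyte and monocyte markers 1 was higher in CBFb_KD and 1 lower in Ring1b_KD, and of 7 mast cell markers 1 was higher and 1 lower in CBFb_KD and 2 higher and 1 lower in Ring1b_KD. The part of cycling, maturation or other cell types in the INK4 values was not tested.

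Of all genes, 6.61% were called higher and 6.18% lower in CBFb_KD, and 4.55% higher and 5.53% lower in Ring1b_KD. Of 18 p53 target genes outside the family 17 were measured, and Bax was not analysed here. In CBFb_KD 1 of the 17 rose, Trp53inp1 (1.72, limma adjusted p = 0.000145), and 2 fell, Zmat3 (-0.93) and Aen (-0.52). Their median log2 difference was -0.0049. The count that rose was 2 or 3 in 6 of the 18 alternatives, among them the fits without Ring1b_KD replicate 1 or 2. In Ring1b_KD Sesn1 rose (0.34, limma adjusted p = 0.0163), a call lost as deposited, with median centring, and without Control replicate 2 or 3. None was called lower, with a median of 0.01, but 1 or 2 were in 11 of the 18 alternatives, among them the fits without CBFb_KD replicate 1, Ring1b_KD replicate 2 or Control replicate 3. Bbc3, a promoter of apoptosis chosen after its value was seen, lay nearest the threshold (-0.48, limma adjusted p = 0.0509). Mdm2, which encodes the ligase that degrades p53 and is itself induced by it, was not called in CBFb_KD (0.27, limma adjusted p = 0.126) or in Ring1b_KD (-0.02). Cdkn1a, the best known p53 target, was not called either, as given above.

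**Figure D4:**
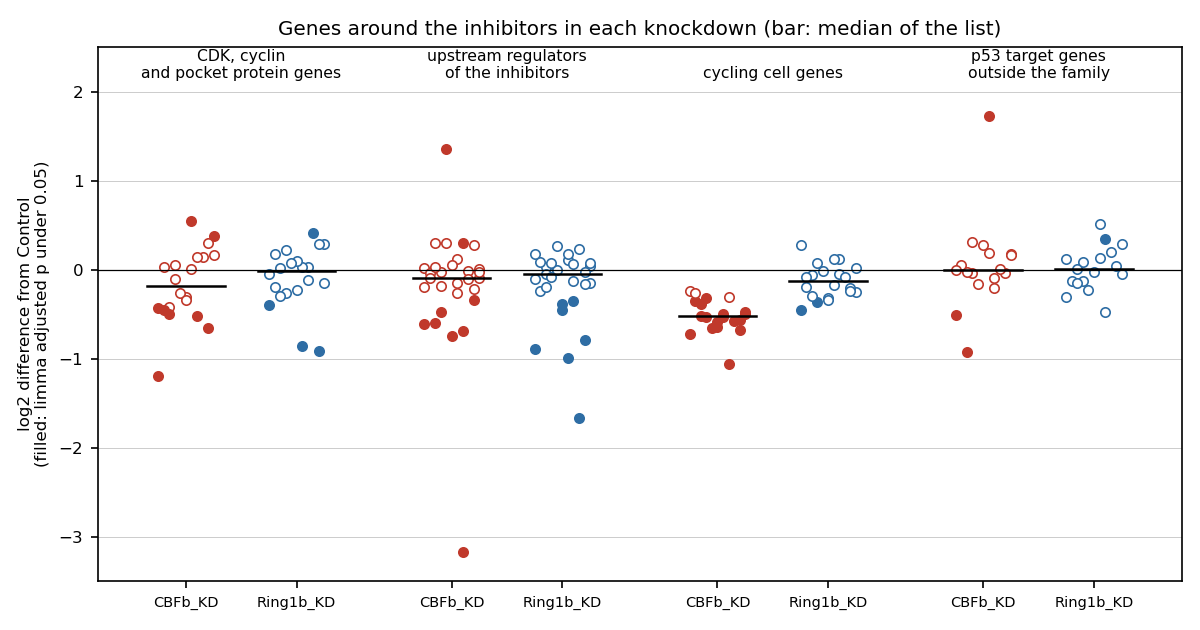
Log2 difference from Control of each measured gene in 4 lists (points), in CBFb_KD and in Ring1b_KD, filled where the limma adjusted p was under 0.05, with the median of the list (bar). The cycling cell genes lie below 0 in CBFb_KD (median -0.53, 17 of 20 called lower, against 6.18% of all genes). The lowest points of the second list are Cbfb in CBFb_KD (-3.17) and Rnf2 in Ring1b_KD (-1.67).

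The nearest measured neighbours of each locus were taken by position on GRCm38.p6. Beside the Cdkn2a and Cdkn2b pair, Mtap, a methionine salvage enzyme 93382 bases away, was called higher in CBFb_KD (0.33, limma adjusted p = 0.018). That call was lost with median centring, with the mean of its probe sets, and without CBFb_KD replicate 2, Control replicate 1 or Control replicate 3. On the other side Dmrta1, 377165 bases away, had a log2 difference of -0.12 without a call, at a signal of 3.76 in CBFb_KD and 3.89 in Control. Rab44, beside Cdkn1a, rose in Ring1b_KD (0.85, limma adjusted p = 0.00931) and stood at 0.06 in CBFb_KD. Srsf3, a splicing factor on the other side of Cdkn1a, fell in CBFb_KD (-0.52) and in Ring1b_KD (-0.46, or -0.29 with its probe sets averaged). Slc22a18, in the imprinted cluster of Cdkn1c, was called higher in Ring1b_KD (0.35, limma adjusted p = 0.0295), a call lost in 7 of 18 alternatives. Beside Cdkn2c the gene model 9630013D21Rik was called higher in Ring1b_KD (0.35, limma adjusted p = 0.0215), a call lost without Ring1b_KD replicate 1 or 3, or Control replicate 2 or 3. The neighbours of Cdkn1b (2810454H06Rik and Lockd) and of Cdkn2d (Kri1 and Ap1m2) were called in neither knockdown, nor were Kcnq1 beside Cdkn1c and Faf1 beside Cdkn2c.

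The genes whose signals ran most alike over the 9 arrays were sought among 9092 non-member genes at or above the median level, by Pearson's r. This describes the 9 arrays, which fall into 3 groups, so a high r mostly records a shared order of the groups. For Cdkn2b they were Irf7, a factor of the interferon response (r = 0.994), Slc30a1, a zinc exporter (r = 0.986), and Tspan17 (r = 0.984), and 348 genes reached 0.9. For Cdkn2a they were Trim24, Nkiras1 and Pkn3 (r = 0.993, 0.993 and 0.991), with 383 genes at 0.9 or more. For Cdkn2d they were Wdfy2, the leukocyte integrin subunit Itgal and the mitochondrial fission protein Fis1 (r = 0.992, 0.986 and 0.985), with 246 such genes. For Cdkn1b probe set 1434045_at they were Map1lc3b, an autophagy protein, Snapin and Notch2 (r = 0.979, 0.968 and 0.966), with 52 such genes. For 1419497_at they were Snx13, St7 and Dennd2d (r = 0.965, 0.961 and 0.961), with 100 such genes.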

How the data were processed

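RNA from CBFb_KD, Ring1b_KD and Control cells was hybridised to 9 short-oligonucleotide arrays of 1 colour, 3 a group. The deposited table holds the authors' log2 signals of 45101 probe sets, as judged from its values (3.23 to 15.4). How the authors corrected, summarised and normalized them is not given in the sources used. Array medians ran from 6.51 to 6.65, so arrays were brought to a common distribution by quantile normalization in limma, and 64 control probe sets were left out. The platform annotation gave 1 symbol to 34945 probe sets. Group means were fitted to all 9 arrays (lmFit, eBayes with trend, limma 3.58.1 in R 4.3.3), with two-sided p-values adjusted by Benjamini-Hochberg over 45037 probe sets. The fit was tested on simulated data. Alternatives changed the normalization, the filter, the variance model, the probe set rule, the arrays fitted and the replicate block. Deviations from group means correlated between same-numbered CBFb_KD and Control arrays (0.121, 0.281 and 0.137), all above 0.1. The replicate block, which the reported fit does not use, is given where it changed a member call. List and neighbour genes that the reported fit did not call were not followed individually through the alternatives. The deviations of Ring1b_KD and Control arrays correlated at values all below 0.1 (-0.145, 0.037 and 0.061).

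The members and gene lists were chosen with earlier results of these data known. Named were each member probe set, up to 6 called genes per list and knockdown by smallest adjusted p, Rnf2, Bmi1, Cbfb and Runx1, the nearest measured neighbour on each side, and the 3 genes most alike to each member called by the F test. Ccnd1, Ccnd2, Cdk4, Rb1, Mdm2, Bbc3, the CBFb_KD results of Ccne2, Cks1b and Fbxw7, and the markers were chosen after their values were seen. Symbols and positions come from the RefSeq gene table of GRCm38.p6. The number of arrays limits the precision.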

Additional observations from a re-analysis of the deposited data

How the results depend on the processing

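Over 18 alternatives the count of member probe sets called higher against Control was 3 or 4 in CBFb_KD and 1 in Ring1b_KD, and the count called lower was 0 in both. No member difference that was called turned its direction. In CBFb_KD against Ring1b_KD the count higher was 2 to 4. The count lower, 1, was 0 as deposited, 0 with median centring, 0 with probe sets averaged by gene, and 0 to 1 with an array left out. Of all probe sets, 4342 were called in CBFb_KD against Control, and 2371 (without Control replicate 3) to 4738 with an array left out. For Ring1b_KD against Control they were 3820, and 1691 (without Control replicate 3) to 4329. For CBFb_KD against Ring1b_KD they were 6033, and 3968 (without CBFb_KD replicate 3) to 6122. The replicate block gave 5003, 4331 and 6672 calls in these comparisons, and median centring gave 3726, 4958 and 5646. With 1 probe set per gene, where fewer features are tested, the calls were 2798, 2225 and 3536 in these comparisons, and with probe sets averaged by gene 2579, 1780 and 3071. Under the replicate block, Cdkn1b probe set 1419497_at was called in CBFb_KD against Control (0.32, limma adjusted p = 0.039) and against Ring1b_KD (limma adjusted p = 0.0419), and no other member call changed. The counts of the gene lists, and the list and neighbour genes called in the reported fit, were put through the same alternatives after the data had been seen. Genes called lower in Ring1b_KD ran from 0 to 9 for cycling genes and 3 to 7 for the list of kinase, cyclin, pocket protein and E2F genes.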
